A study of Mus musculus with 6 samples.

Results

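The genes described are the forkhead factors Foxo1, Foxo3 and Foxo4 and the insulin-IGF signalling genes Igf1r, Insr, Irs1, Irs2, Akt1 and Akt2, in mouse muscle stem cells with and without a knockout of Opa1. They were chosen by name from what the encoded proteins do, with no measured value in the rule, and are 9 of the 49652 gene rows in each library. All 9 were detected in every library, with 464 to 14402 counts, and all 9 passed the filter on low counts.

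Insulin and the insulin-like growth factors bind the receptor kinases INSR and IGF1R, which phosphorylate the docking proteins IRS1 and IRS2. These recruit PI3 kinase, whose lipid product brings AKT to the membrane, where PDK1 and mTORC2 activate it. Active AKT phosphorylates FOXO1, FOXO3 and FOXO4, so that 14-3-3 proteins hold them in the cytoplasm. When the input falls, FOXO factors enter the nucleus and switch on genes of cell cycle arrest, stress resistance and protein breakdown, and also genes of the pathway itself, such as Irs2. In mouse muscle stem cells FOXO factors are known to maintain quiescence and IGF1 signalling to favour growth. Much of this control acts on phosphorylation and location, which transcript levels do not report.

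Bulk RNA-seq was done on 6 libraries of stem cells sorted from uninjured hindlimb muscle of mice aged 8 to 10 weeks. KO animals (n = 3 libraries) carried the Opa1/Pax7-CreERT2 design with Cre, and WT animals (n = 3 libraries) carried it without Cre. Both groups received tamoxifen by gavage for 5 days and gave cells 3 days later. Pax7-CreERT2 drives a tamoxifen-activated Cre from the Pax7 gene, so recombination is aimed at Pax7-expressing cells. The gate was positive for alpha-7 integrin and VCAM and negative for SCA1, CD45 and CD31. Cre and the loss of Opa1 come together in KO and no library had Cre without that loss, so their effects cannot be told apart. The number of animals behind a library is not given, so p-values measure only the spread between these libraries.

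Gene counts totalled 41410136 to 56591699 in KO libraries and 48329905 to 56606886 in WT libraries. Opa1, the targeted gene, had 17.5, 34.4 and 27.1 CPM (gene counts relative to library size, after TMM scaling) in KO replicates 1 to 3, against 68.2, 31.4 and 68.8 CPM in WT replicates 1 to 3. On the log2 scale Opa1 in KO minus WT was -1.09 (SE 0.37), with an unadjusted edgeR p of 0.0215. Its adjusted p was 0.99998 in edgeR and 0.817 in DESeq2, so neither tool called the targeted gene. WT replicate 2 fell within the span of the KO libraries, against its label. It is therefore called the library labelled WT replicate 2, and each fold change of the 9 genes is also given without it. It also had 1 count of Xist, against 13837 to 27175 in the other libraries. The stem cell marker Pax7 stood at 325 to 453 CPM in KO and 252 to 398 CPM in WT. Of 9 stem cell markers, Pax7 among them, 3 had a positive and 6 a negative log2 fold change, from -0.58 to 0.16. For 1 of the 9 the unadjusted edgeR p was under 0.05, beside 2.09% of all genes tested. The groups did not overlap for 1 of the 9, beside 6.55%, and edgeR called 0 of them. Of 10 leukocyte markers, 8 were under 1 CPM in every library, and Ptprc, which encodes CD45, was at 0 in KO replicate 1, WT replicate 1 and the library labelled WT replicate 2. The 10 endothelial markers summed to 108 to 183 CPM in KO and 109 to 195 CPM in WT. The 10 fibro-adipogenic markers summed to 1495 to 1530 CPM in KO and 1779 to 2575 CPM in WT, so every KO sum was below every WT sum. Of these 10 genes, 4 had a positive and 6 a negative log2 fold change, and the groups overlapped for each gene taken alone. The part of this difference in the levels of other genes was not tested. All 10 mature fibre markers had a negative log2 fold change, with sums of 212 to 502 CPM in KO and 249 to 637 CPM in WT. Of 18 immediate early genes 17 had a positive one, with sums of 15012 to 42574 CPM in KO and 7497 to 35356 CPM in WT. Over all genes tested 51% were positive. The immediate early sum was lowest in WT replicate 3, and KO replicate 1 stood below the other WT libraries, so the groups overlapped.

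None of the 9 genes passed the test between KO and WT, and for each of them the libraries of the 2 groups overlapped. In edgeR's quasi-likelihood test the adjusted p was 0.99998 for each of the 9. The test called 0% of the 18832 genes tested (0 genes), with 393 genes (2.09%) at an unadjusted p under 0.05. DESeq2 called 20 of 18785 genes (0.106%), and limma voom called 0. At an unadjusted p under 0.05 the edgeR count was 0 of the 9. The groups did not overlap for 0 of the 9, beside 6.55% of all genes tested. Of the 9, 7 had a positive log2 fold change (KO minus WT), beside 51% of all genes tested, and the median was 0.12, beside 0.01 over all genes tested. The intervals differ in width by gene, and a p that misses the threshold does not show that the groups had equal levels.

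**Figure D1:**
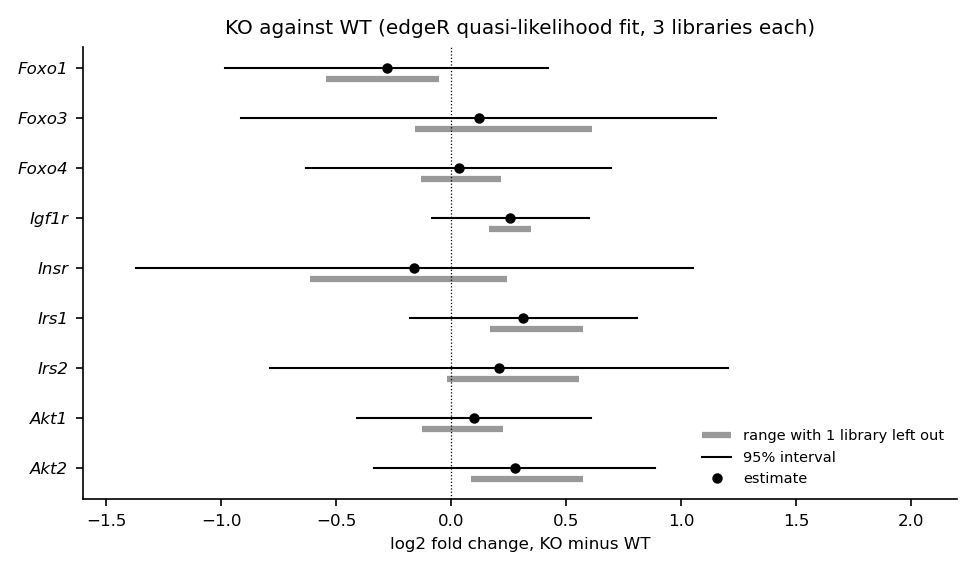
Log2 fold change (KO minus WT, horizontal axis) of each of the 9 genes (point) with its 95% confidence interval from edgeR (thin line) and the range of the estimate when each library is left out in turn (grey bar). The interval of every gene spans 0. It is narrowest for Igf1r, at -0.08 to 0.60, and widest for Insr, at -1.37 to 1.05.

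Foxo1 encodes the FOXO factor best known for control of glucose metabolism and of muscle atrophy genes. It had 104, 132 and 155 CPM in KO replicates 1 to 3, against 94.5, 176 and 205 CPM in the libraries labelled WT 1 to 3. The WT libraries enclosed the KO libraries, with WT replicate 1 lowest and WT replicate 3 highest of the 6. The means were 130 ± 25.4 CPM in KO and 158 ± 57.1 CPM in WT (SD, n = 3 each). The log2 fold change was -0.28 (SE 0.30), with a 95% interval of -0.98 to 0.42, and -0.20 without the library labelled WT replicate 2. The size hung on single WT libraries: without WT replicate 1 it was -0.54, with an unadjusted edgeR p of 0.0355 and an adjusted p of 0.9996, and without WT replicate 3 it was -0.05. The gene lies at chr3:52268336-52353221 on the plus strand of GRCm38.

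Foxo3 encodes the family member most closely tied to stem cell quiescence, in muscle through Notch signalling. It had 85.8, 190 and 193 CPM in KO replicates 1 to 3, against 83.0, 121 and 226 CPM in the libraries labelled WT 1 to 3. KO replicate 1 and WT replicate 1 were the lowest pair, and WT replicate 3 was the highest library. The means were 156 ± 60.9 CPM in KO and 144 ± 74.3 CPM in WT (SD, n = 3 each). Its log2 fold change came to 0.12 (SE 0.44), with an interval of -0.91 to 1.15, and 0.01 without the library labelled WT replicate 2. The direction was not settled: the value was -0.16 without WT replicate 1 and 0.61 without WT replicate 3. Foxo3 lies at chr10:42181841-42276755 on the minus strand.

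Foxo4 encodes a smaller FOXO factor that AKT controls like the others, and lies on the X chromosome (chrX:101254528-101260873, plus strand). It had 10.9, 13.1 and 8.91 CPM in KO replicates 1 to 3, against 13.2, 10.2 and 8.68 CPM in the libraries labelled WT 1 to 3. The groups covered nearly the same range, and the library labelled WT replicate 2, with its 1 count of Xist, stood inside the range of the others. The means were 10.9 ± 2.08 CPM in KO and 10.7 ± 2.33 CPM in WT (SD, n = 3 each). This gave a log2 fold change of 0.03 (SE 0.28), with an interval of -0.63 to 0.70. It was -0.0027 without the library labelled WT replicate 2, and ran between -0.13 and 0.22 over the 6 fits that leave out a library.

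Igf1r, which encodes the receptor for IGF1 and IGF2, was the steadiest of the 9 genes. It had 224, 279 and 254 CPM in KO replicates 1 to 3, against 205, 191 and 236 CPM in the libraries labelled WT 1 to 3. KO replicates 2 and 3 were the highest libraries, and WT replicate 3 stood above KO replicate 1, so the groups overlapped in that pair alone. The means were 252 ± 27.7 CPM in KO and 211 ± 23.1 CPM in WT (SD, n = 3 each). On the log2 scale the difference was 0.26 (SE 0.14), with an interval of -0.08 to 0.60 and an unadjusted edgeR p of 0.115. It was 0.19 without the library labelled WT replicate 2 and stayed between 0.16 and 0.35 when any library was left out. Igf1r lies at chr7:67952827-68233668 on the plus strand.

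Insr, which encodes the insulin receptor, was the most variable. It had 9.64, 30.04 and 41.6 CPM in KO replicates 1 to 3, against 19.7, 36.8 and 34.3 CPM in the libraries labelled WT 1 to 3. KO replicate 1 was the lowest library and WT replicate 1 the next, and KO replicate 3 was the highest. The raw counts were 480, 1246 and 2364 in KO and 1117, 1764 and 1835 in WT, so counting error was small beside the 4.32-fold range over libraries. The means were 27.1 ± 16.2 CPM in KO and 30.3 ± 9.22 CPM in WT (SD, n = 3 each). KO minus WT was, on the log2 scale, -0.16 (SE 0.51), with an interval of -1.37 to 1.05. Leaving out KO replicate 1 gave 0.24, and leaving out the library labelled WT replicate 2 gave 0.0037. Insr lies at chr8:3122061-3279617 on the minus strand.

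**Figure D2:**
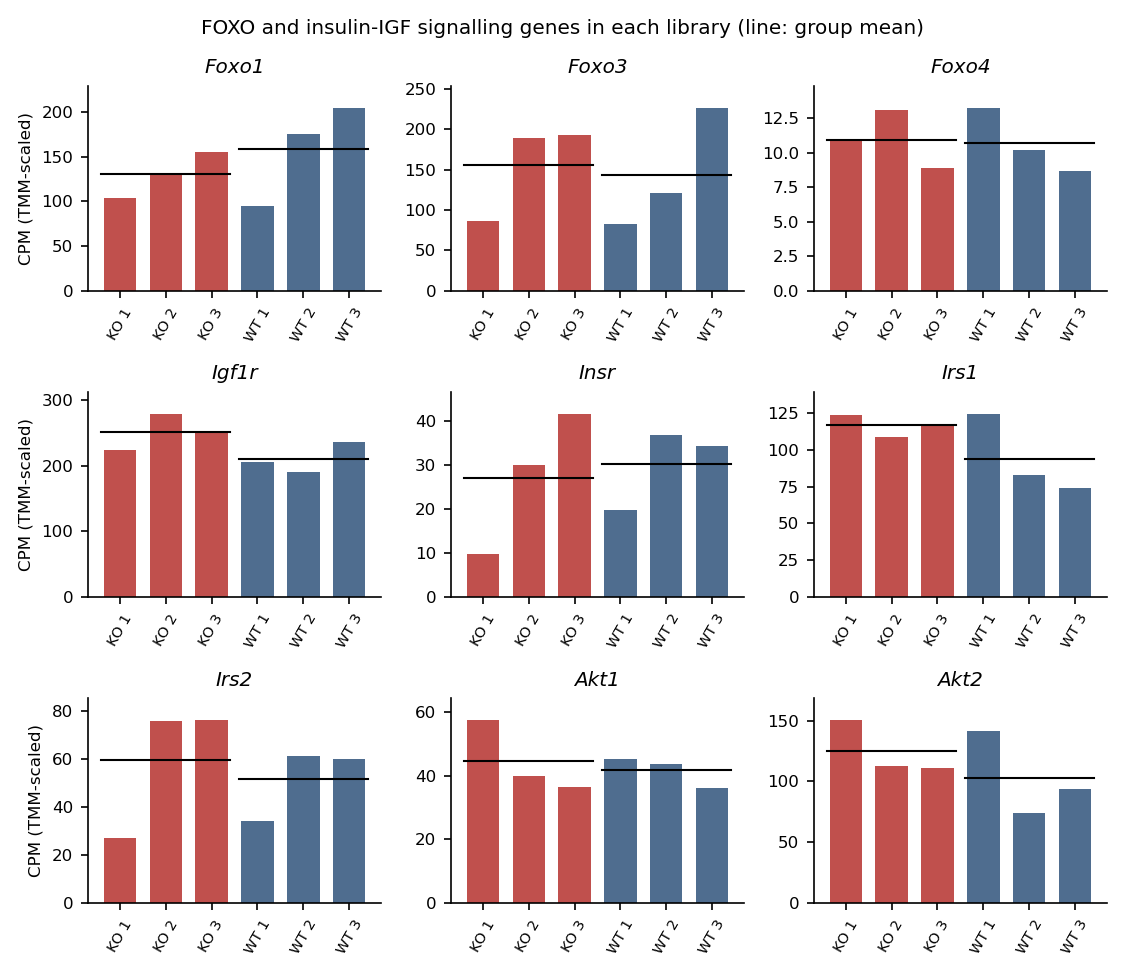
Level of each of the 9 genes in the 6 libraries, in CPM after TMM scaling (vertical axes, starting at 0), 1 bar per library with KO (red) left of WT (blue) and the group mean as a black line. KO and WT bars overlap in height in every panel, and library 1 of both groups sits lowest for Foxo1, Foxo3, Insr and Irs2 and highest for Irs1, Akt1 and Akt2.

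Irs1 encodes the docking protein through which IGF1R and INSR act on muscle growth. It had 124, 109 and 118 CPM in KO replicates 1 to 3, against 125, 82.7 and 74.4 CPM in the libraries labelled WT 1 to 3. The KO libraries lay close together, and WT replicate 1 stood above all of them while the other WT libraries stood below. The means were 117 ± 7.57 CPM in KO and 93.9 ± 26.9 CPM in WT (SD, n = 3 each). The log2 fold change was 0.31 (SE 0.21), with an interval of -0.18 to 0.81, and 0.23 without the library labelled WT replicate 2. Without WT replicate 1 it was 0.57, with an unadjusted edgeR p of 0.0071 and an adjusted p of 0.9996. The gene lies at chr1:82233101-82291416 on the minus strand, and the antisense gene Gm9747, which covers 30.9% of its exon bases, had 0 counts in every library. The strand setting is not given, so reads from the shared bases may have been counted for neither gene. The level of Irs1 may then be too low.

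Irs2 encodes the docking protein whose gene insulin represses and FOXO factors activate, as known from liver. It had 27.1, 75.5 and 76.1 CPM in KO replicates 1 to 3, against 33.9, 61.0 and 59.8 CPM in the libraries labelled WT 1 to 3. KO replicate 1 and WT replicate 1 were low together, and the other 4 libraries lay between 59.8 and 76.1 CPM, with both KO libraries above both WT libraries. The means were 59.6 ± 28.1 CPM in KO and 51.6 ± 15.3 CPM in WT (SD, n = 3 each). Its log2 fold change came to 0.21 (SE 0.42), with an interval of -0.79 to 1.196, and 0.35 without the library labelled WT replicate 2. It was 0.56 without KO replicate 1 and -0.020 without WT replicate 1. The gene lies at chr8:10984681-11008458 on the minus strand, and the antisense gene 9530052E02Rik, over 2.56% of its exon bases, had 0 to 22 counts.

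The docking protein genes parted in library 1 of both groups, where Irs1 was high and Irs2 low. Their promoters are therefore printed together, with that of Akt1, the only one of the 7 genes searched with a match to the motif GTAAACA. Windows of 250 bases before the RefSeq start (GRCm38.p6) were at hand for 7 of the 9 genes, as 11 windows because Akt1 and Akt2 have several starts. Each is written 5′ to 3′ on the strand of the gene, and capitals mark the motifs searched, on both strands. These were GTAAACA (a FOXO family binding element), TGTTTTG (a core of the insulin response element) and CACGTG (the E-box). The absence of GTAAACA does not show that a window has no FOXO site. TGTTTTG and CACGTG were chosen after the windows had been read.
Irs1, chr1:82291440-82291689, minus strand: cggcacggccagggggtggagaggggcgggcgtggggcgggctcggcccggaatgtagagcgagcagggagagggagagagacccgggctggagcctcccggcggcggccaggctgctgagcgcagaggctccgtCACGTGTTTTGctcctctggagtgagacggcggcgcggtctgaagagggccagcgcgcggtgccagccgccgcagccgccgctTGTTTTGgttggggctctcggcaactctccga
Irs2, chr8:11008930-11009179, minus strand: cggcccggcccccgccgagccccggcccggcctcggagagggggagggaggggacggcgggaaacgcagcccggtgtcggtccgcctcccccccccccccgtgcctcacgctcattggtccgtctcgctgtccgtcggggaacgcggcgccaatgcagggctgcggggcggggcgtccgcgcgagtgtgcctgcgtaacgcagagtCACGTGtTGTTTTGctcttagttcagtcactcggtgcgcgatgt
Akt1, chr12:112674885-112675134, minus strand: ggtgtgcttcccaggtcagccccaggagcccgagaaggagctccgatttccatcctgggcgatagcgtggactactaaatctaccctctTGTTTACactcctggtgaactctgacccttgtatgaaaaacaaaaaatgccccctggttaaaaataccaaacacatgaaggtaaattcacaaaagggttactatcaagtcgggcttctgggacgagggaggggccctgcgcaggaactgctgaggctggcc
In Irs1, TGTTTTG begins 111 and 32 bases before the start, and CACGTG begins 115 bases before it and shares its last 2 bases with the upstream TGTTTTG. In Irs2, TGTTTTG begins 37 and CACGTG 44 bases before the start, without overlap. GTAAACA is in neither window. In the Akt1 window it lies on the opposite strand, printed as TGTTTAC, from 161 bases before the start. No match to any of the 3 motifs is in the Foxo1, Foxo3, Igf1r and Akt2 windows or in the other Akt1 window, which says only that these letters are not there. Over all 32851 promoter windows of this length, 3.17% hold GTAAACA, 5.56% TGTTTTG and 6.02% CACGTG. A match is a description of the letters and not a bound site.

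Akt1 encodes the AKT kinase linked to cell growth and survival. It had 57.6, 40.1 and 36.5 CPM in KO replicates 1 to 3, against 45.4, 43.6 and 36.2 CPM in the libraries labelled WT 1 to 3. KO replicate 1 stood apart at the top, and the other 5 libraries were mixed between groups. The means were 44.7 ± 11.3 CPM in KO and 41.7 ± 4.88 CPM in WT (SD, n = 3 each). This gave a log2 fold change of 0.10 (SE 0.22), with an interval of -0.41 to 0.61, and 0.13 without the library labelled WT replicate 2. Without KO replicate 1 it was -0.12. Akt1 lies at chr12:112653821-112674884 on the minus strand.

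Akt2 encodes the AKT kinase of insulin-stimulated glucose uptake. It had 151, 113 and 111 CPM in KO replicates 1 to 3, against 141, 74.4 and 93.5 CPM in the libraries labelled WT 1 to 3. Library 1 was the highest of its group in both, and the KO libraries stood above the remaining WT libraries. The means were 125 ± 22.4 CPM in KO and 103 ± 34.5 CPM in WT (SD, n = 3 each). On the log2 scale the difference was 0.28 (SE 0.26), with an interval of -0.33 to 0.89. It was 0.09 without the library labelled WT replicate 2 and 0.57 without WT replicate 1, the last with an unadjusted edgeR p of 0.0317 and an adjusted p of 0.9996. Akt2 lies at chr7:27591552-27640826 on the plus strand.

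Within groups the 9 genes were unequally variable. The within-group SD of log2 CPM was 0.86 for Insr, 0.70 for Foxo3 and 0.69 for Irs2, against a median of 0.27 over 9889 genes whose log2 CPM averaged 3 or more. Among those genes Insr stood at percentile 96.7, Foxo3 at 94.1 and Irs2 at 94.0. Igf1r, with an SD of 0.16, stood at percentile 17.1. The other 5 genes had SDs of 0.28 to 0.46. For Insr, Foxo3 and Irs2 the spread inside a group was therefore larger than the difference between the group means.

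KO replicate 1 and WT replicate 1 stood apart in most of the 9 genes. They were the 2 lowest libraries for Foxo1, Foxo3, Insr and Irs2 (4 of 9 genes), beside 12.3% of all genes tested. They were the 2 highest libraries for Irs1, Akt1 and Akt2 (3 of 9 genes), beside 14.2% of all genes tested. The pair was looked at after the values had been seen, so these counts are a description and carry no test. It is also the pair that most often took both ends over all genes tested: it was lowest or highest together for 26.5% of genes, against 6.74% to 18.7% for the other 14 pairs of libraries. Only Foxo4 and Igf1r did not follow it.

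Genes that FOXO factors are known to switch on were low in the same libraries in many cases. Of 31 such genes 28 passed the filter, and KO replicate 1 and WT replicate 1 were the 2 lowest libraries for 13 of them (46.4%, beside 12.3% of all genes tested), and the 2 highest for Sod2 and Notch1. The 13 were Cdkn1b, Ccng2, Rbl2, Bcl6, Txnip, Trp53inp1, Cited2, Pdk4, Fbxo32, Bnip3, Gabarapl1, Map1lc3b and Ddit4. They include inhibitors of the cell cycle (Cdkn1b, Ccng2, Rbl2), a switch from glucose to fat oxidation (Pdk4) and genes of protein breakdown and autophagy (Fbxo32, Gabarapl1, Map1lc3b, Bnip3). Not all cell cycle inhibitors of the list did so. Cdkn2b was highest in KO replicate 1 (4.36 CPM) and lowest in WT replicate 1 (0.53 CPM). Cdkn1a was next to highest in KO replicate 1 (206 CPM) and lowest in WT replicate 1 (66.3 CPM). Pdk4 had 36.2, 99.7 and 108 CPM in KO replicates 1 to 3, against 41.8, 110 and 149 CPM in the libraries labelled WT 1 to 3. Ddit4, an inhibitor of mTORC1, had 109, 157 and 286 CPM in KO, against 23.5, 362 and 511 CPM in WT. For both genes the groups overlapped through library 1, and in replicates 2 and 3 both WT libraries stood above both KO libraries. The 31 genes summed to 2435, 3415 and 3942 CPM in KO replicates 1 to 3 and to 2155, 3613 and 4647 CPM in the libraries labelled WT 1 to 3.

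**Figure D3:**
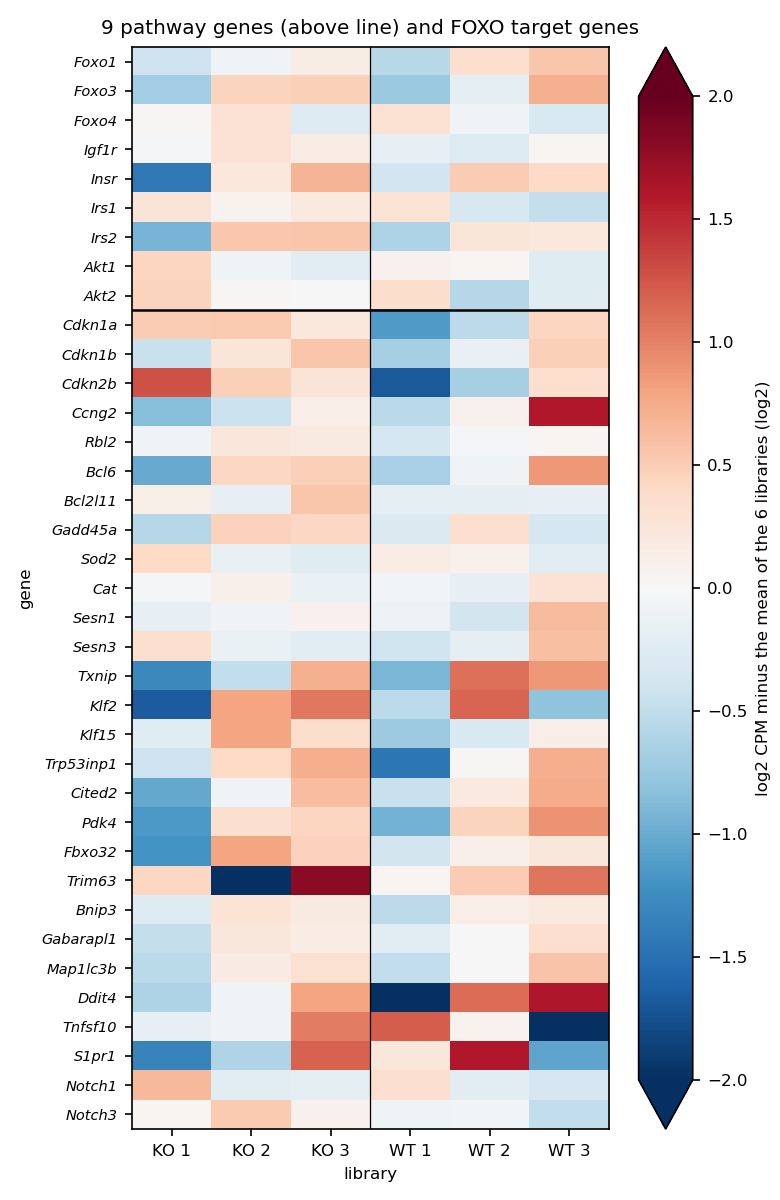
Log2 CPM minus each gene's mean over the 6 libraries (colour scale, red above and blue below the mean), with genes in rows and libraries in columns, KO left of WT. The 9 genes stand above the black line and the 28 FOXO target genes that passed the filter below it. Library 1 of both groups is blue for Foxo1, Foxo3, Insr and Irs2 and for the 13 target genes in which this pair of libraries was lowest.

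Other measures differed between these libraries as well. Reads without a feature made up 11.6%, 15.5% and 17.0% of reads in KO replicates 1 to 3 and 11.2%, 16.3% and 14.6% in the libraries labelled WT 1 to 3. The 18 cell cycle genes summed to 1155, 176 and 148 CPM in KO and to 554, 145 and 496 CPM in WT, and 11 of them were highest in KO replicate 1 and WT replicate 1. The 18 immediate early genes, which rise within minutes of a disturbance such as tissue dissociation, summed to 15012, 42574 and 39081 CPM in KO and to 18237, 35356 and 7497 CPM in WT. The 9 stem cell markers summed to 7182, 9250 and 9736 CPM in KO and to 7849, 9201 and 11855 CPM in WT, lowest in library 1 of both groups. Chodl, at 2449 to 5869 CPM, was the most abundant of them. KO replicate 1 and WT replicate 1 were the 2 lowest libraries for 3 of the 9 (Sdc4, Chodl and Spry1), beside 12.3% of all genes tested. They were the 2 highest for Itga7, beside 14.2% of all genes tested. Pax7 was lowest in WT replicate 3, so the low sum does not hold for each marker. Erythroid markers, which are mostly globins, summed to 257, 33.0 and 214 CPM in KO and to 423, 99.1 and 198 CPM in WT. The part of any of these in the split of the FOXO and insulin-IGF genes was not tested, and in bulk RNA fewer cells of a type and less RNA per cell cannot be told apart.

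Between genes, levels were compared per length, as CPM per kb of exon sequence (mean of the 6 libraries). This mean pools KO and WT for description and does not take the groups as equal. Foxo3 stood at 19.8, Foxo1 at 16.7, Akt2 at 16.0, Igf1r at 13.8, Irs1 at 11.5, Akt1 at 10.5 and Irs2 at 8.79 CPM per kb. Foxo4 at 3.11 and Insr at 2.09 CPM per kb closed the order. The ranges over libraries of neighbours in this order overlapped at each step except between Irs2 and Foxo4. Foxo4 and Insr thus stood below the rest, and the ranges do not settle the full order of the other 7. Within every library, though, Irs2 stood below Foxo3, Foxo1, Akt2 and Igf1r, and Irs1 below Akt2. Irs1 may be undercounted over the 30.9% of its exon bases shared with Gm9747, so its place holds only for the counts as given. With the length of the longest transcript in place of all exons, Akt2 led at 25.1 CPM per kb, ahead of Foxo3 at 21.9 and Igf1r at 20.3, and Foxo4 at 3.42 and Insr at 3.07 remained last.

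**Figure D4:**
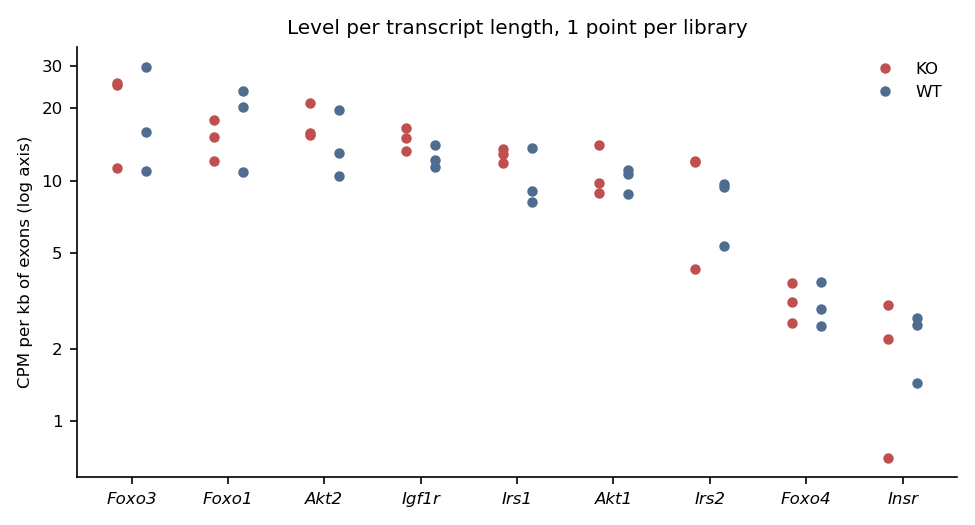
Level of the 9 genes in CPM per kb of exon sequence (log axis), 1 point per library, with KO (red) left of WT (blue) for each gene and genes ordered by their mean of 6 libraries. Foxo4 and Insr lie below the other 7 genes, whose ranges overlap with their neighbours.

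Within families, the per-length shares show which member supplied most of the transcripts. Of the summed FOXO level, Foxo3 held 42.8%, 56.9% and 55.5% in KO replicates 1 to 3, against 42.7%, 40.8% and 53.4% in the libraries labelled WT 1 to 3. Foxo1 held 34.6% to 45.5% in KO and 42.2% to 51.7% in WT, and Foxo4 5.57% to 11.8% in KO and 4.45% to 14.8% in WT. Foxo1 and Foxo3 thus made up most of the FOXO transcripts in each library. Insr held at most 16.7% of the level of the receptor pair in KO and at most 19.1% in WT, and Igf1r held the rest. Irs1 held 75.9%, 49.9% and 51.7% of the IRS pair in KO, against 71.8%, 48.4% and 46.2% in WT. On these counts the pair was near balance in 4 libraries and led by Irs1 in library 1 of both groups. The shares would change if Irs1 was undercounted over the bases it shares with Gm9747.

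Ratios of family members within a library do not depend on how libraries are scaled, and 5 were compared between groups by an exact two-sided permutation test over the 6 libraries, for which 0.1 is the smallest p possible. The design therefore cannot reach 0.05. The Irs2 over Irs1 ratio of CPM was 0.219, 0.694 and 0.647 in KO replicates 1 to 3, against 0.272, 0.738 and 0.804 in the libraries labelled WT 1 to 3. Library 1 had the lowest ratio in both groups, and the groups overlapped. The log2 difference was -0.24 (exact permutation p = 0.5, adjusted over the 5 ratios 0.75). The Igf1r over Insr ratio was 23.2, 9.29 and 6.09 in KO, against 10.4, 5.18 and 6.88 in WT, with a log2 difference of 0.61 (exact permutation p = 0.5, adjusted 0.75) that was 0.07 without KO replicate 1. For Foxo1 over Foxo3 the difference was -0.38 (exact permutation p = 0.3, adjusted 0.75), for Foxo4 over Foxo3 -0.12 (exact permutation p = 0.8, adjusted 0.8) and for Akt2 over Akt1 0.24 (exact permutation p = 0.6, adjusted 0.75). None of the 5 ratios separated KO from WT.

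The rest of the pathway was read from 6 lists set by function, and edgeR called 0 genes in each of them. Among ligands and binding proteins, 10 of 14 genes passed the filter, with 5 positive and 5 negative log2 fold changes and a median of 0.01. Insulin itself (Ins1, Ins2), Igfals and Igfbp1 did not pass. Igf1, the ligand of IGF1R, had 236, 68.6 and 79.9 CPM in KO replicates 1 to 3, against 249, 136 and 166 CPM in the libraries labelled WT 1 to 3. KO replicate 1 stood with the WT libraries and the other KO libraries below them, and the log2 fold change was -0.52 (SE 0.49). Without KO replicate 1 it was -1.31, with an unadjusted edgeR p of 0.0037 and an adjusted p of 0.9998, and without WT replicate 1 it was -0.23. Igfbp3, which carries IGFs in blood, had 9.07 to 56.9 CPM in KO and 12.1 to 27.7 CPM in WT. Igf2 had 21.8 to 39.4 CPM in KO and 22.7 to 26.9 CPM in WT, and Igfbp4 104 to 158 CPM in KO and 81.4 to 171 CPM in WT.

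Among adaptors and inhibitors at the receptor, 15 of 16 genes passed the filter, with 11 positive and 4 negative values and a median of 0.12. Without WT replicate 3 the positive count was 7. Enpp1, which encodes an ectonucleotidase that binds and inhibits the insulin receptor, was the only one of the 15 at an unadjusted p under 0.05, beside 2.09% of all genes tested. It was also the only one whose groups did not overlap, and 1 of 15 is near the 6.55% of all genes tested. It had 11.1, 9.14 and 12.1 CPM in KO replicates 1 to 3, against 4.68, 2.69 and 3.61 CPM in the libraries labelled WT 1 to 3. Every KO library stood above every WT library, and the means were 10.8 ± 1.52 CPM in KO and 3.66 ± 1.00 CPM in WT (SD, n = 3 each). KO minus WT was, on the log2 scale, 1.56 (SE 0.33), with an interval of 0.79 to 2.33, and 1.38 to 1.78 when any library was left out. The adjusted p was 0.99998 in edgeR, at an unadjusted p of 0.0020, and 0.0103 in DESeq2, so its call depends on the tool. Socs3, a feedback inhibitor of cytokine and insulin signalling, had 236, 1271 and 741 CPM in KO, against 274, 520 and 58.6 CPM in WT, a 21.7-fold range over libraries with a log2 fold change of 1.40 (SE 0.83). Leaving out KO replicate 2 gave 0.77, and leaving out the library labelled WT replicate 2 gave 2.17. Grb14 had 0.40 to 1.64 CPM in KO and 0.42 to 0.64 CPM in WT, and Dok1 3.69 to 4.80 CPM in KO and 2.51 to 3.76 CPM in WT.

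From PI3 kinase to AKT all 21 genes passed the filter, with 10 positive and 11 negative values and a median of -0.03. Phlda3, a p53-induced repressor of AKT, had 265, 149 and 149 CPM in KO replicates 1 to 3, against 159, 119 and 93.4 CPM in the libraries labelled WT 1 to 3. WT replicate 1 stood above KO replicates 2 and 3, and the log2 fold change was 0.60 (SE 0.29) with an unadjusted edgeR p of 0.0806. Without KO replicate 1 it was 0.27, with an unadjusted edgeR p of 0.296. Inppl1, which encodes the lipid phosphatase SHIP2, had 21.3 to 58.1 CPM in KO and 23.2 to 28.0 CPM in WT. The catalytic subunit gene Pik3cd had 0.55 to 3.21 CPM in KO and 0.47 to 0.97 CPM in WT, and Pik3cb at most 1.64 CPM in KO and 0.64 CPM in WT. All 10 genes of AKT substrates other than FOXO passed, with 7 positive and 3 negative values and a median of 0.09. In that list Foxk1 had 18.5 to 29.7 CPM in KO and 13.6 to 25.6 CPM in WT, and Foxk2 17.4 to 24.2 CPM in KO and 21.7 to 25.02 CPM in WT. Gsk3b, the kinase through which AKT controls glycogen synthesis, had 212 to 236 CPM in KO and 176 to 236 CPM in WT, and Tsc2, the brake on mTORC1, 36.6 to 51.3 CPM in KO and 33.9 to 45.2 CPM in WT.

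Among 18 partners and modifiers of FOXO factors, all of which passed, 9 values were positive and 9 negative, with a median of -0.01. Without KO replicate 1 the median was -0.19. Mdm2, a ubiquitin ligase of p53 and of FOXO factors, had 71.3 to 82.3 CPM in KO and 58.6 to 71.6 CPM in WT, with the groups overlapping in 1 pair of libraries. The 14-3-3 gene Ywhaq had 206 to 265 CPM in KO and 232 to 302 CPM in WT. The deacetylase gene Sirt2 had 225 to 286 CPM in KO and 251 to 340 CPM in WT, and the kinase gene Sgk3 11.3 to 19.96 CPM in KO and 9.74 to 13.5 CPM in WT.

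Among the FOXO target genes, 16 of the 28 that passed had a positive and 12 a negative value, with a median of 0.11. The groups did not overlap for 2 of the 28, Notch3 and Bcl2l11, which is near the 6.55% of all genes tested, so the count says nothing particular of the list. Bcl2l11 is named after its values were seen. Notch3, a receptor that helps to keep muscle stem cells quiescent, had 211, 297 and 217 CPM in KO replicates 1 to 3, against 193, 198 and 146 CPM in the libraries labelled WT 1 to 3. Its log2 fold change was 0.43 (SE 0.19), with an unadjusted edgeR p of 0.0577. It was 0.24 without KO replicate 2 and 0.31 without WT replicate 3, and it was 0.51 when the library labelled WT replicate 2 was left out. Notch3 is also a pericyte gene, and the 10 smooth muscle and pericyte markers summed to 1246 to 1721 CPM in KO and 1085 to 1982 CPM in WT. Bcl2l11, which encodes the death protein BIM, had 16.8, 13.8 and 22.8 CPM in KO, against 13.6, 13.7 and 13.8 CPM in WT, so KO replicate 2 and WT replicate 3 all but met. Cdkn1a, which encodes the cell cycle inhibitor p21 and is also a p53 target, had 206, 208 and 168 CPM in KO, against 66.3, 101 and 196 CPM in WT, with a log2 fold change of 0.68 (SE 0.37). WT replicate 3 alone kept the groups of Cdkn1a from separating, and the log2 fold change was 1.22 without it and 0.39 without WT replicate 1. Cdkn2b had 2.13 to 4.36 CPM in KO and 0.53 to 2.26 CPM in WT, and Klf15, a regulator of amino acid breakdown, 92.6 to 190 CPM in KO and 66.7 to 121 CPM in WT. A RefSeq promoter window was at hand for 28 of the 31 genes, not the same 28 as passed the filter, and GTAAACA is in those of Bcl2l11, Trim63 and Txnip and TGTTTTG in those of Ccng2 and G6pc.

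**Figure D5:**
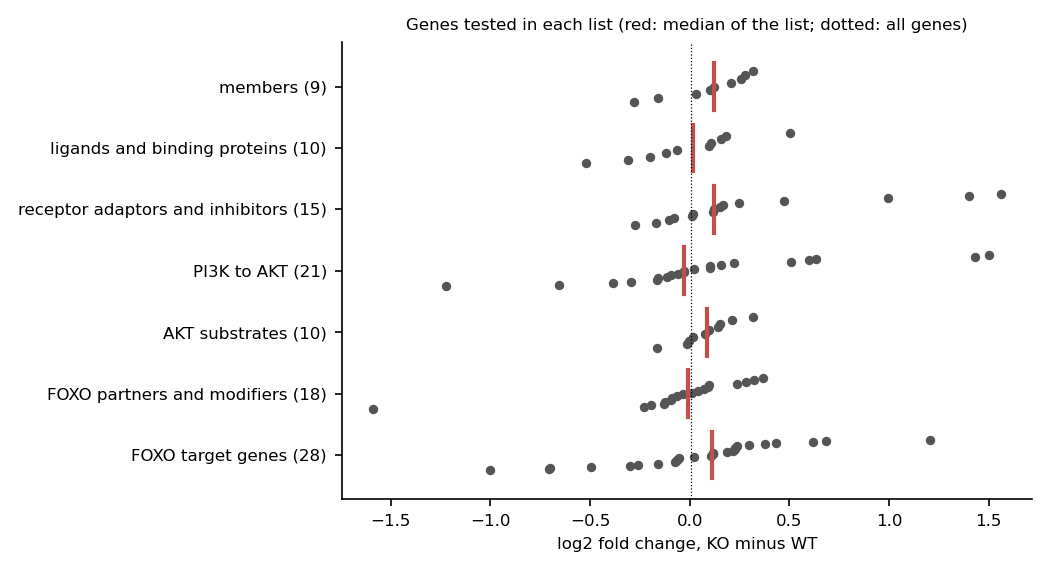
Log2 fold change (KO minus WT, horizontal axis) of every gene that passed the filter in each of 7 lists, the 9 genes on top, with the list's median as a red line and that of all genes as a dotted line. The lists lie around 0, with medians from -0.03 to 0.12, and Enpp1 at 1.56 stands at the high end of its list.

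For each of the 9 genes, the genes with the most similar pattern were found among 9889 genes by the root mean square difference of centred log2 CPM over the 6 libraries. The nearest to Foxo1 were Mmd (0.07) and Rora (0.09), to Foxo3 Osbp (0.12) and Lgals4 (0.13), and to Foxo4 Iqce (0.07) and Gm9320 (0.07). Nearest to Igf1r were Cacul1 and Phf21a (0.05 each), and to Insr Omd (0.13) and E130102H24Rik (0.15). Irs1 lay closest to Aldh16a1 (0.06) and Llgl1 (0.07), and Irs2 to Slc25a27 (0.12) and Btg1 (0.13). Akt1 lay closest to Sod2 (0.04) and Dkc1 (0.05), and Akt2 to Dpp3 (0.04) and Nucb1 (0.05). None of the 9 was among the 2 nearest genes of another. Among the 9 themselves the closest pair was Irs1 and Akt2 (0.18) and the farthest Insr and Akt2 (1.01), so the docking protein gene Irs1 ran nearer to Akt2 than to Irs2 (0.75).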

How the data were processed

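The authors deposited raw gene counts for each library, whole numbers with no normalization, per the file headers and values. A further 5 summary rows were left out of totals and tests. The submitters' processing notes name STAR 2.6.0c, HTSeq 0.6.1p2, cutadapt 2.5, Trim Galore 0.5.0, DESeq2 and edgeR (no version for the last pair) and the build GRCm38. Strand setting and annotation release were not given in the sources used here. Reads of antisense neighbours can therefore not be told apart. Reads from bases that genes share may also have been counted for neither. The files list reads that aligned more than once apart from the genes.

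KO was compared with WT in R 4.3.3 by edgeR 4.0.16 (quasi-likelihood, robust, TMM scaling, the package's low-count filter, no covariate), with Benjamini-Hochberg adjustment over 18832 genes. A gene was called below 0.05 after adjustment. Log2 fold changes, KO minus WT, used a prior count of 0.125. Intervals cover 95%. DESeq2 1.42.0 and limma 3.58.1 (voom) were alternatives. Ratios and patterns were computed in Python 3.11.15 with SciPy 1.17.1. Symbols, positions and lengths come from GENCODE M21 (GRCm38), matched for 49399 of 49652 gene rows. Promoters come from RefSeq (GRCm38.p6).

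The 9 genes and the lists were chosen with earlier results of these data known. In each list the 4 genes with the smallest unadjusted p are named, and for each of the 9 genes the 2 nearest patterns. Bcl2l11, Pdk4, Ddit4 and the genes named by library rank were chosen after their values were seen. The fit was run on simulated counts that varied less between libraries than these data. That run therefore does not show which changes could be detected here. Member counts of at least 464 keep counting error at or below 4.64%, so the spread between libraries limits precision.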

Additional observations from a re-analysis of the deposited data

How the results depend on the processing

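In edgeR 0 genes were called with DESeq2's size factors, with library totals, without the low-count filter, with non-robust dispersions and without each library in turn, and limma voom also called 0; DESeq2 called 20. Unadjusted p under 0.05 was reached by 393 genes as reported and by 392 to 864 genes in the other settings and 324 to 818 without a library. None of the 63 values of the 9 genes in other settings changed sign. Of 54 values that leave out a library 12 did, in 5 genes: Foxo3 ran between -0.16 and 0.61, Foxo4 between -0.13 and 0.22, Insr between -0.61 and 0.24, Irs2 between -0.020 and 0.56 and Akt1 between -0.12 and 0.23. So did Igf2 (-0.15 to 0.34), Igfbp3 (-0.83 to 0.93), Igfbp4 (-0.066 to 0.61), Tsc2 (-0.014 to 0.28) and the log2 ratios of Foxo4 over Foxo3 (-0.65 to 0.38), Irs2 over Irs1 (-0.74 to 0.30) and Akt2 over Akt1 (-0.0095 to 0.42). The cause was not tested.

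Replicate numbers are shared by the groups, and the deviations of same-numbered libraries correlated at 0.24, 0.11 and -0.07. KO and WT libraries of different numbers correlated at -0.29 to 0.21. Replicate 1 thus gave the highest value of all, but replicates 2 and 3 lay within the span of the different numbers. The labels do not name pairs, and the numbers are not taken as pairs. With the replicate block edgeR called 0 genes (515 at an unadjusted p under 0.05), and the log2 fold changes were -0.22 for Foxo1, 0.15 for Foxo3, 0.04 for Foxo4, 0.26 for Igf1r, -0.35 for Insr, 0.35 for Irs1, 0.11 for Irs2, 0.08 for Akt1 and 0.31 for Akt2. The smallest adjusted p of the 9 genes in any setting was 0.854. With 3 libraries a group, changes as small as those estimated here could not be told from 0.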
